A study of Homo sapiens with 9 samples.

Results

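The genes described here are the 8 chorionic gonadotropin subunit genes of the deposited gene table: the 6 beta copies CGB1, CGB2, CGB3, CGB5, CGB7 and CGB8, the luteinizing hormone beta gene LHB, and the alpha subunit gene CGA. They were taken by symbol out of 36785 genes, and all 8 had a row. The family had been chosen by the log2 fold changes of its beta genes against the control, which earlier results of the same data showed to be higher in both hairpin groups, so their differences from the control are described below without a test, while the difference between the hairpins was tested. SKOV3 is an established human ovarian carcinoma cell line. Its cells, all transduced with lentivirus, gave poly(A)-selected RNA-seq libraries in 3 groups of 3: sh1 (genotype STXBP6 knockdown_1), sh3 (genotype STXBP6 knockdown_3) and shNC (genotype NC), the control. The labels name neither the promoter driving the hairpins nor the making of the lines, and nothing says that replicates came from separate cultures, so every p-value measures the spread between these libraries, which may be technical.

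Human chorionic gonadotropin is a secreted glycoprotein hormone of the placental syncytiotrophoblast. Its alpha subunit, shared with luteinizing, follicle-stimulating and thyroid-stimulating hormone, pairs with a beta subunit that gives the hormone its receptor specificity, and free beta subunit is also known to be made by some non-trophoblastic carcinomas without the alpha subunit. The beta genes arose in primates by duplication of LHB and lie beside it on chromosome 19. CGB3, CGB5 and CGB8 are known as the main placental copies, CGB7 as a copy also found in other tissues, and CGB1 and CGB2 as copies with another 5′ end whose predicted protein differs from the hormone subunit.

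The libraries held 57654447 to 69264400 counts, so that 3 counts, the floor of detection, equalled 0.0433 to 0.052 CPM, the count scaled to the library's total. Floors cover counting error only. The intervals given below come from the edgeR fit and also include the spread between these libraries. STXBP6, the targeted gene, had 7, 4 and 26 counts in the 3 sh1 libraries, 20, 31 and 18 in sh3 and 4, 0 and 15 in shNC. It was thus not lower in the libraries labelled as knockdowns, and every direction below rests on the labels alone. The tumour markers ERBB2, a receptor tyrosine kinase, KRT8, a simple epithelial keratin, and PAX8, a Mullerian lineage factor, averaged 755, 116 and 40.4 FPKM, a level scaled also to gene length, over the 9 libraries, whereas the ovarian antigen gene MUC16 averaged 0.0139 FPKM. Of 5 leukocyte markers 4 had a row, none with enough counts to be tested.

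The promoters were alike among CGB3, CGB5 and CGB8, and between CGB1 and CGB2. All 8 members matched the RefSeq promoter table of GRCh38.p14, which holds the 250 bases before and 50 bases after each annotated start. The 250 bases before the start of CGB8 (chr19:49049112-49049361, minus strand), CGB3 (chr19:49024334-49024583, minus strand) and CGB5 (chr19:49043598-49043847, plus strand) are printed first, because these copies carried most of the counts; capitals mark bases of CGB3 and CGB5 that differ from the aligned base of CGB8.
CGB8: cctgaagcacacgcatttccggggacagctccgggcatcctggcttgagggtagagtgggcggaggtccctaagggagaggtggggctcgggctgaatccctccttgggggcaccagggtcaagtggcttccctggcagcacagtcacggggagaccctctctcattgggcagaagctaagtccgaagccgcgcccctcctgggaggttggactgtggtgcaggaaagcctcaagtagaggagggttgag
CGB3: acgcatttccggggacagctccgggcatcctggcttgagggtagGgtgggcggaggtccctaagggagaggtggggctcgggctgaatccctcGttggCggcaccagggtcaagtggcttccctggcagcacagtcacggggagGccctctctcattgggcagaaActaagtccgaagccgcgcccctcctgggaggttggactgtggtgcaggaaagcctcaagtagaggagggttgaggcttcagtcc
CGB5: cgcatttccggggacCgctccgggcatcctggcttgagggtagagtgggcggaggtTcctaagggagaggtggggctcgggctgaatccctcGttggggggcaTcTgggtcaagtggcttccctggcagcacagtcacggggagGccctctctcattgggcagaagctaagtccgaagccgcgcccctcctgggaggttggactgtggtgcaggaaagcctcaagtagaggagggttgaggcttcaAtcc
Over the full 300-base windows, CGB3 and CGB8 were identical at 285 of 290 aligned bases, CGB5 and CGB8 at 280 of 289, and CGB3 and CGB5 at 289 of 299. The printed stretches differ from CGB8 at 5 bases in CGB3 and 7 in CGB5.

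The promoters of CGB1 (chr19:49036896-49037145, minus strand), CGB2 (chr19:49031640-49031889, plus strand) and CGA (chr6:87095107-87095356, minus strand) are printed for the palindromic cAMP response element TGACGTCA, the binding site of CREB family factors, shown in capitals.
CGB1: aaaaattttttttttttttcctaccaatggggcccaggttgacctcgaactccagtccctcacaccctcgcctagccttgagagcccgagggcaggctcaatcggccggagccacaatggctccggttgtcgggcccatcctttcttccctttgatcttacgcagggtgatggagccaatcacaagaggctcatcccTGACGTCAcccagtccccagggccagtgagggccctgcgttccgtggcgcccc
CGB2: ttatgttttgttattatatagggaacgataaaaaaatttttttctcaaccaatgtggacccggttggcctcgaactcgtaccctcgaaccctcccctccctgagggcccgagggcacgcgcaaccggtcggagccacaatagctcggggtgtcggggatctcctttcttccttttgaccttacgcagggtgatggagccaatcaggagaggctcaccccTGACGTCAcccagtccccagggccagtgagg
CGA: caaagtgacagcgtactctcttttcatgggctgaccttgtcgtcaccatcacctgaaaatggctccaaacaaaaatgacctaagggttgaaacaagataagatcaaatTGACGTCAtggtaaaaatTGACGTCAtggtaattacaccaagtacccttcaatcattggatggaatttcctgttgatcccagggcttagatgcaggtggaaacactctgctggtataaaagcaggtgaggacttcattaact
CGB1 and CGB2 were identical at 242 of 274 aligned bases, and CGB1 and CGB8 at 158 of 211 (74.9%). The gapped alignment of CGB8 with CGA, on another chromosome, gave 163 of 220 (74.1%), so the value for CGB1 and CGB8 shows no likeness beyond that. The element was found once in CGB1, starting 53 bases before the start site, once in CGB2, 31 bases before it, and at 2 places in CGA, 142 and 124 bases before it. It was in none of the windows of CGB3, CGB5, CGB7, CGB8 and LHB, and in 1.85% of all 35116 promoters of the table. Searched on both strands, its half-site TGACG, which lies within it, was in the same 3 members and in 24.6% of all promoters, and the E-box CANNTG was in 7 of 8 members and 68.7% of promoters. The ETS core GGAAG was in 6 of 8 members and 71.9% of promoters. The AP-2 site GCCNNNGGC was in CGB7 alone among the members and in 23.2% of promoters, and the GATA site AGATAA and the TATA box TATAAA were in CGA alone and in 10.3% and 11.5% of promoters. A match describes letters in the window and is not a binding site.

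Likeness between the transcripts limits how well reads can be told apart. Of all 150-base stretches in a gene's annotated transcripts (GENCODE release 29), the read length given in the labels, the share found in no other gene was 35.1% for CGB1, 36.3% for CGB5, 47.3% for CGB3, 47.7% for CGB8, 57.7% for CGB7 and 60.3% for CGB2. For LHB and for CGA it was all of them, and no such stretch was shared between LHB and any beta copy. Reads of the copies may therefore have been traded among them, and no label or file header says how the authors counted reads with several matches. The sum of the 6 copies cannot be changed by trading among them and is given beside each copy. It can still be changed by trading with genes outside the 6. Of the 5578 such stretches in the 6 copies together, 3865 (69.3%) were found in no gene outside them.

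Summed over the 6 copies, beta subunit RNA was several times higher with both hairpins than in the control. The 3 sh1 libraries held 53.3, 56.7 and 58.1 CPM (TMM-scaled), the 3 sh3 libraries 42.5, 47.6 and 45.5 CPM, and the 3 shNC libraries 10.4, 12.8 and 12.2 CPM. Each hairpin library lay above each control library, and each sh1 library above each sh3 library. The sum averaged 56.0 ± 2.45 CPM in sh1, 45.2 ± 2.57 CPM in sh3 and 11.8 ± 1.28 CPM in shNC (SD, n = 3 each). On the log2 scale it was 2.25 ± 0.08 (SE, edgeR) above shNC with sh1, a 4.75-fold difference, and 1.94 ± 0.08 with sh3, a 3.83-fold difference; both share the 3 shNC libraries. In these bulk samples, more cells making the RNA and more RNA per cell cannot be told apart.

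**Figure D1:**
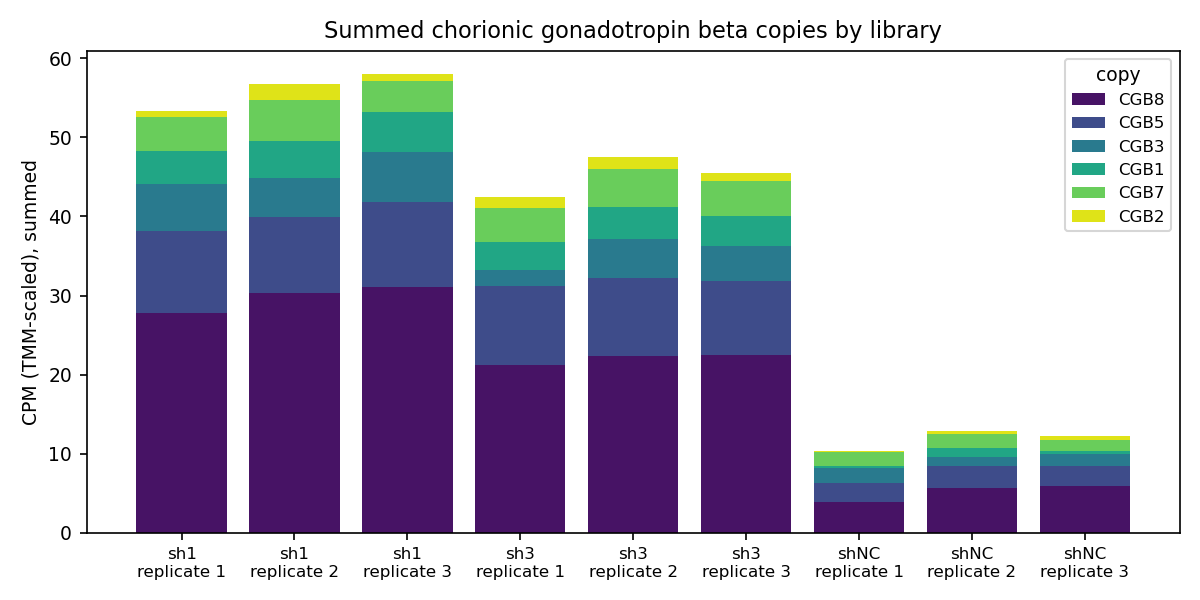
Summed beta copies in each of the 9 libraries, in TMM-scaled CPM, stacked by copy. The sh1 bars reach 53.3 to 58.1 CPM, the sh3 bars 42.5 to 47.6 CPM and the shNC bars 10.4 to 12.8 CPM, and CGB8 is the largest part of each bar.

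CGB8 was the leading copy (ENSG00000213030, chromosome 19, 49047638 to 49049111, minus strand, GRCh38). It had 27.8, 30.4 and 31.0 CPM in sh1, 21.3, 22.3 and 22.4 CPM in sh3 and 3.89, 5.67 and 5.93 CPM in shNC. The groups did not overlap, with sh1 highest and shNC lowest. Its log2 fold change against shNC was 2.53 ± 0.13 with sh1 and 2.09 ± 0.13 with sh3.

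CGB5 (ENSG00000189052, 49043848 to 49045311, plus strand), which encodes the same placental hormone subunit, was second. It had 10.4, 9.61 and 10.8 CPM in sh1, 9.88, 9.91 and 9.36 CPM in sh3 and 2.40, 2.73 and 2.53 CPM in shNC. The hairpin groups overlapped each other and lay wholly above shNC. The log2 fold changes were 2.01 ± 0.11 with sh1 and 1.93 ± 0.11 with sh3, and replicates were tight, with coefficients of variation of 5.90% in sh1, 3.16% in sh3 and 6.41% in shNC.

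CGB3 (ENSG00000104827, 49022869 to 49024333, minus strand), the third placental copy, was more uneven. It had 5.90, 4.93 and 6.30 CPM in sh1, 2.02, 4.89 and 4.44 CPM in sh3 and 1.87, 1.15 and 1.54 CPM in shNC. All hairpin libraries were above all shNC libraries, although sh3 replicate 1 was only just so. The log2 fold changes were 1.91 ± 0.30 with sh1 and 1.31 ± 0.30 with sh3. An unnamed locus on the same strand, ENSG00000267335 (49022953 to 49036895), overlaps CGB3 and CGB1, so reads there can go to either row. It had 1, 104 and 88 counts in sh1, 144, 52 and 54 in sh3 and 0, 11 and 0 in shNC. Its count in sh3 replicate 1, 144, was the highest of all, in the library where CGB3 was lowest among the hairpin libraries, at 138 counts. CGB3 and this locus added together averaged 6.74 ± 0.836 CPM in sh1, 5.07 ± 0.843 CPM in sh3 and 1.57 ± 0.281 CPM in shNC, and the coefficient of variation in sh3 was 16.6%, against 40.8% for CGB3 alone.

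The copies with another 5′ end were apart in level in both hairpin groups and overlapped in shNC. CGB1 (ENSG00000267631, 49035569 to 49036895, minus strand) had 4.15, 4.69 and 5.13 CPM in sh1, 3.6, 4.06 and 3.81 CPM in sh3 and 0.267, 1.24 and 0.359 CPM in shNC. Its log2 fold changes, 2.89 ± 0.42 with sh1 and 2.61 ± 0.42 with sh3, were the largest among the members, but shNC replicate 2 set much of their error: without it they were 3.90 and 3.61. CGB2 (ENSG00000104818, 49031890 to 49033238, plus strand) had 0.741, 1.97 and 0.952 CPM in sh1, 1.33, 1.53 and 1.05 CPM in sh3 and 0.178, 0.298 and 0.427 CPM in shNC. Its 2 hairpin groups overlapped widely and lay above shNC, at 2.02 ± 0.42 with sh1 and 2.11 ± 0.42 with sh3.

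CGB7 (ENSG00000196337, 49054275 to 49058860, minus strand), the copy known from other tissues, differed least from the control among the 6 with sh1, and CGB3 with sh3. It had 4.33, 5.18 and 3.85 CPM in sh1, 4.35, 4.84 and 4.4 CPM in sh3 and 1.77, 1.74 and 1.44 CPM in shNC. The log2 fold changes were 1.43 ± 0.16 with sh1 and 1.45 ± 0.16 with sh3. Again the hairpin groups overlapped and shNC lay below both.

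**Figure D2:**
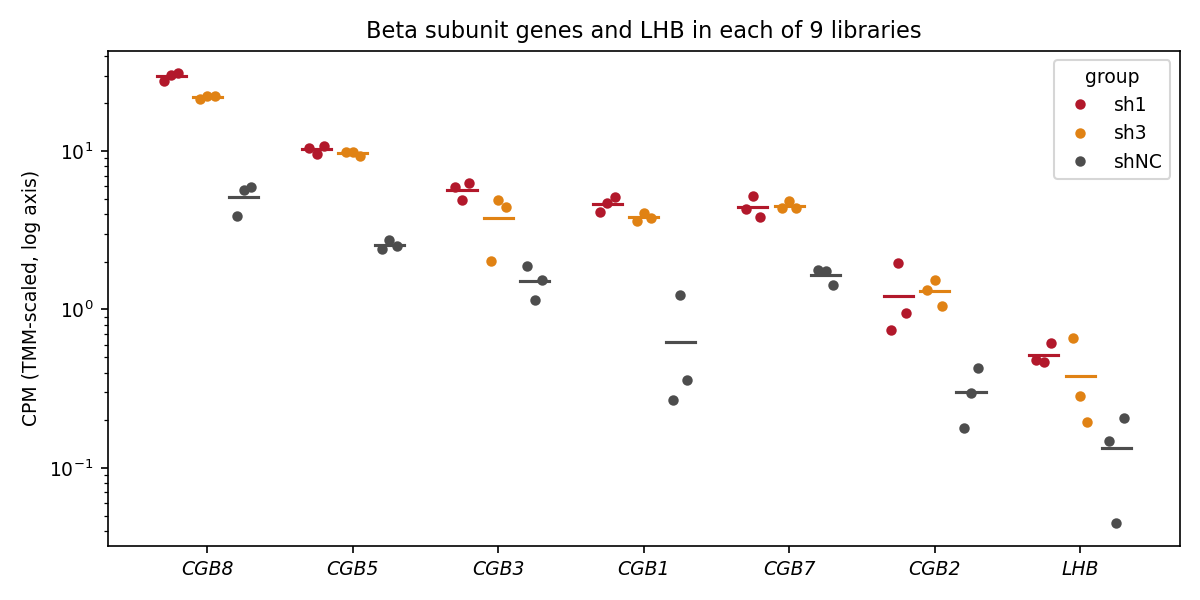
TMM-scaled CPM on a log axis of the 6 beta copies and LHB in each library, with bars at the means of sh1, sh3 and shNC (n = 3 each). For the 6 copies all sh1 and sh3 points lie above all shNC points; for LHB the sh3 points, 0.196 to 0.659 CPM, reach into the shNC range of 0.0447 to 0.205 CPM.

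LHB (ENSG00000104826, 49015980 to 49017091, minus strand) encodes the pituitary hormone's beta subunit. It had 29, 27 and 42 counts in sh1, 45, 17 and 12 in sh3 and 10, 3 and 12 in shNC. The sh1 libraries were above all shNC libraries, while sh3 overlapped shNC. Its log2 fold change was 1.97 ± 0.62 with sh1 and 1.52 ± 0.62 with sh3, in counts that are a small fraction of those of the beta copies. The value for sh3 leaned on sh3 replicate 1, without which it was 0.85.

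CGA (ENSG00000135346, chromosome 6, 87085498 to 87095106, minus strand), the alpha subunit without which no complete hormone forms, was near absent. It had 4 counts in sh1 replicate 1, 4 in shNC replicate 1 and 0 in the other 7 libraries, so it was too low to be tested. At these depths the floor of 3 counts equalled up to 0.052 CPM. Its highest level was 0.0659 CPM, or 0.0301 FPKM, in sh1 replicate 1. Summed per length, the beta copies stood at 54.1 ± 2.22 FPKM in sh1, 43.8 ± 2.73 FPKM in sh3 and 11.1 ± 1.36 FPKM in shNC.

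In all, 7 of 7 tested members were called higher with sh1 (edgeR, adjusted p under 0.05), where 19.9% of the 21296 tested genes were called higher, and 6 of 7 with sh3, LHB being the exception, where 14.4% were. The members' median log2 fold changes were 2.01 and 1.93, against -0.02 and -0.01 over all tested genes. Because the members were proposed from these contrasts, nothing is read from the counts. All 6 copies had every hairpin library above every control library, as had 13.8% of tested genes.

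Per length, the order of the levels was nearly the same in every group. In sh1 the means fell in the order CGB8 (30.3 FPKM), CGB5 (10.6), CGB3 (5.89), CGB1 (4.83), CGB2 (1.24), CGB7 (1.19) and LHB (0.721 FPKM). In sh3 the levels were 23.0 FPKM for CGB8, 10.2 for CGB5, 4.05 for CGB1, 3.99 for CGB3, 1.36 for CGB2, 1.23 for CGB7 and 0.547 FPKM for LHB. In shNC they were 5.38 FPKM for CGB8, 2.69 for CGB5, 1.60 for CGB3, 0.651 for CGB1, 0.448 for CGB7, 0.311 for CGB2 and 0.181 FPKM for LHB. CGB3 and CGB1, and CGB2 and CGB7, had overlapping ranges in both hairpin groups. CGB7's place depends on its length, since its FPKM implied about 3705 bases against 958 for CGB5.

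The share of each copy in the beta counts was compared between the hairpins. CGB8 supplied 53.0 ± 0.812% in sh1, 48.8 ± 1.64% in sh3 and 43.4 ± 5.57% in shNC (SD, n = 3 each). The share of CGB5 was 18.4 ± 1.33% in sh1, 21.6 ± 1.49% in sh3 and 21.7 ± 1.30% in shNC. CGB7 supplied 7.96 ± 1.25% in sh1, 10 ± 0.317% in sh3 and 14.1 ± 2.68% in shNC. For these 3 copies the sh3 and sh1 shares did not overlap, and the exact two-sided permutation p was 0.1, the smallest that 3 libraries against 3 can give. Shares of one total depend on each other, so these 3 differences are not separate results. The sh3 and shNC shares of CGB8 and of CGB5 overlapped. The shares of the other 3 copies overlapped between sh3 and sh1. CGB1 supplied 8.46 ± 0.0832% in sh3 and 8.30 ± 0.521% in sh1 (exact permutation p = 0.7), CGB2 2.88 ± 0.509% in sh3 and 2.17 ± 1.13% in sh1 (p = 0.4), and CGB3 8.27 ± 3.05% in sh3 and 10.2 ± 1.31% in sh1 (p = 0.5).

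The hairpins were then compared with each other, a contrast that had not been used to choose the members. The summed beta copies were lower with sh3 than with sh1, at a ratio of 0.806 (95% interval 0.722 to 0.90). The log2 difference was -0.31 ± 0.07 (edgeR, adjusted p = 0.0081), all 3 sh3 libraries were below all 3 sh1 libraries, and the exact permutation p was 0.1, its smallest possible value. Of the 7 tested members, 1 was called lower with sh3 and 0 higher, against 13% and 12.9% of all tested genes. Complete separation was common, since 21% of tested genes had all 3 sh3 libraries above all 3 sh1 libraries. The share with the opposite order, that of the sum, was not counted.

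The called member was CGB8, at -0.43 ± 0.12 (edgeR, adjusted p = 0.020; interval -0.70 to -0.17). Its call was lost, with adjusted p of 0.055 to 0.073, without sh1 replicate 2 or 3 or without any 1 of the sh3 libraries, and with limma on log2(FPKM + 0.1). CGB5 differed by -0.08 ± 0.10 (interval -0.30 to 0.14) and CGB7 by 0.02 ± 0.15 (interval -0.31 to 0.36), neither called. CGB3, at -0.60 ± 0.29 (interval -1.22 to 0.03), and CGB1, at -0.29 ± 0.38 (interval -1.11 to 0.54), were not called either. Their sh3 libraries all lay below their sh1 libraries, for CGB3 only just (4.89 against 4.93 CPM). Nothing is read from this order, since 21% of tested genes had the opposite complete order and the share with this one was not counted. The intervals of CGB2 and LHB were wider still, so differences of several-fold size in LHB (interval -1.70 to 0.81) cannot be seen at its depth.

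**Figure D3:**
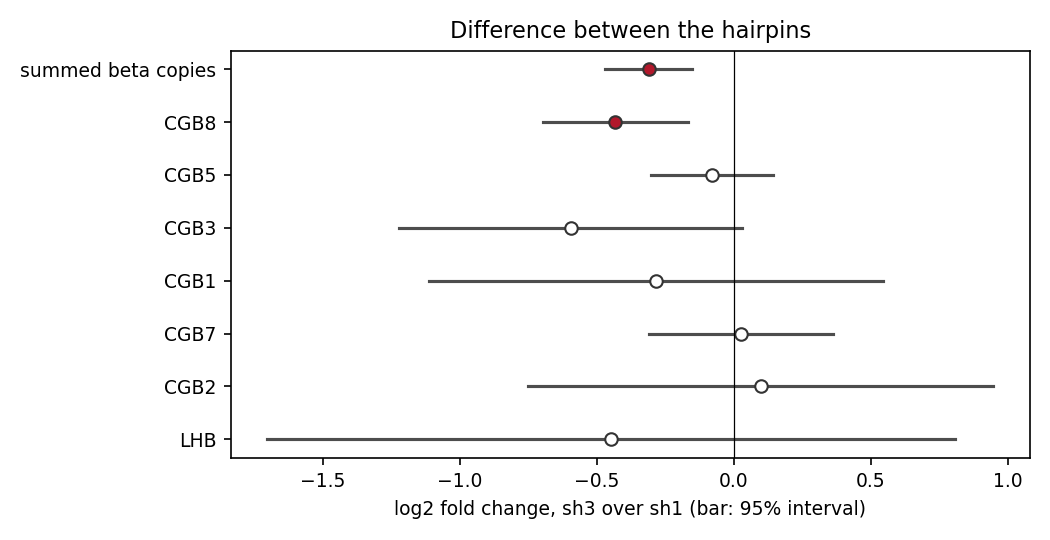
Log2 fold change of sh3 over sh1 for the summed beta copies, each tested copy and LHB, with 95% intervals (edgeR, 3 libraries a group); filled points were called at adjusted p under 0.05. The sum and CGB8 lie below 0, and the intervals of the other 6 genes cross 0.

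The stretch from LHB to CGB7 spans 42881 bases, and some rows inside it that are no members were high with the hairpins as well. Not all of them are separate from the members. ENSG00000267335 overlaps CGB3 and CGB1, and the untested ENSG00000283663 and ENSG00000283251 overlap CGB7, so reads there can go to either row. Of 9 non-member rows 6 had enough counts to be tested. Of these, 5 rose with sh1 and 4 with sh3, with 0 lower (edgeR, adjusted p under 0.05). Over all tested genes 19.9% and 14.4% were called higher, and 38.7% and 26.9% in either direction. The 6 tested rows had median log2 fold changes of 2.65 and 2.17. In shNC, ENSG00000267335 had 0, 11 and 0 counts, ENSG00000268655 had 9, 9 and 0, and NTF6G had 1, 4 and 0. These rows passed the filter through the hairpin libraries, where they are high. Their direction was thus largely set by the filter, and nothing is read from the number of calls or the medians. The most abundant, ENSG00000269706, an unprocessed pseudogene between CGB8 and CGB7 (49050217 to 49050846), had 433, 502 and 551 counts in sh1, 409, 303 and 341 in sh3 and 68, 101 and 83 in shNC. It rose by 2.60 ± 0.17 with sh1 and 2.08 ± 0.17 with sh3 on the log2 scale (edgeR, adjusted p = 2.7e-07 and 4.0e-06), values close to those of CGB8. Like CGB8 it was lower with sh3 than with sh1 (-0.52 ± 0.16, adjusted p = 0.029).

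Outside the cluster, within 250000 bases, the rows moved in both directions. Single rows on the LHB side ranged from -2.62 to 1.66 with sh1. The members were chosen as high and rows inside passed the filter as above, so inside and outside are not compared. On the LHB side 12 were tested, 2 higher and 4 lower with sh1 and 2 of each with sh3, and their median log2 fold changes were -0.08 and -0.04. On the CGB7 side 9 were tested, 2 higher and 1 lower with sh1 and 1 higher with sh3, with medians of 0.46 and 0.16. Over all 27 tested neighbours, inside the cluster and out, 14 were called with sh1, but 9 without sh1 replicate 2. The genes next to the cluster were higher too. RUVBL2, an ATPase of chromatin remodelling complexes whose end lies 53 bases from that of LHB on the other strand, rose to 183.3 ± 5.37 CPM in sh1 and 170.2 ± 4.08 CPM in sh3, against 106.0 ± 1.87 CPM in shNC (log2 0.79 ± 0.03 and 0.68 ± 0.03; adjusted p = 8.5e-09 and 1.1e-07). NTF4, a neurotrophin gene next to CGB7, rose by 0.93 ± 0.23 and 1.16 ± 0.23 (adjusted p = 0.0065 and 0.0025), to 1.78 ± 0.317 CPM in sh1 and 2.09 ± 0.276 CPM in sh3, against 0.935 ± 0.199 CPM in shNC.

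Farther out on the LHB side, the glycogen synthase gene GYS1 and the ferritin light chain gene FTL fell slightly with sh1, by 0.13 and 0.11 (adjusted p = 0.028 and 0.022), and were at -0.01 and 0.08 with sh3, not called. BAX, an apoptosis effector, was not called with either, at 0.14 and 0.18. On the CGB7 side the potassium channel gene KCNA7 was at 0.70 and 0.98, the scaffold gene LIN7B at 0.34 and 0.37, and the splicing gene SNRNP70 at 0.02 and 0.07, none called.

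**Figure D4:**
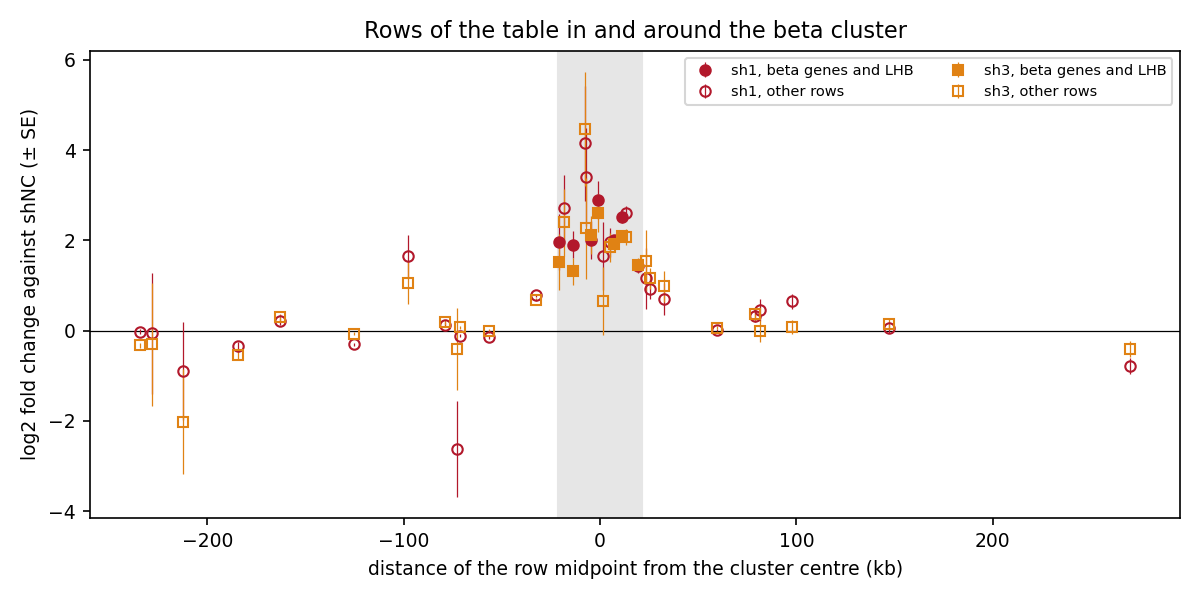
Log2 fold change against shNC (± SE, edgeR) with sh1 (circles) and sh3 (squares) of every tested row within 250000 bases of the cluster, by distance of its midpoint from the cluster centre in kilobases; the grey band is the cluster, and filled symbols are the beta genes and LHB. The members, chosen as high, and the rows between them lie above 0, at 1.31 to 2.89 for the members. Rows on the LHB side have medians of -0.08 and -0.04 and range from -2.62 to 1.66 with sh1.

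Of the other hormones of the family and their receptors, TSHB, GPHA2 and TSHR were too low to be tested, none with more than 8 counts in a library. FSHB, GPHB5, LHCGR (the receptor of chorionic gonadotropin) and FSHR were not analysed here.

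Factors known to regulate the subunit genes moved in both directions, in a list of 23 drawn up with earlier results of these data known. Of the 21 tested, 6 rose and 5 fell with sh1, and 5 rose and 3 fell with sh3 (edgeR, adjusted p under 0.05), with medians of -0.02 and 0.07. Over all tested genes 19.9% were called higher and 18.8% lower with sh1, and 14.4% higher and 12.4% lower with sh3. ETS2, an ETS factor that activates both hormone subunits in trophoblast cells, rose to 162.3 ± 3.30 CPM in sh1 and 150.9 ± 4.48 CPM in sh3, against 104.2 ± 2.66 CPM in shNC (log2 0.64 ± 0.03 and 0.53 ± 0.03; adjusted p = 4.6e-08 and 5.0e-07). POU5F1, a pluripotency factor known to repress the subunit genes in choriocarcinoma cells, fell to 5.51 ± 0.350 CPM in sh1 and 8.24 ± 1.20 CPM in sh3, against 14.5 ± 1.49 CPM in shNC (log2 -1.40 ± 0.13 and -0.81 ± 0.13; adjusted p = 4.2e-06 and 0.00049). Reads of POU5F1 and its near-identical pseudogenes may not be fully told apart. Between the hairpins ETS2 was lower (-0.10, adjusted p = 0.036) and POU5F1 higher (0.58, adjusted p = 0.0054) with sh3.

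The activator SP1 fell with both, by 0.41 and 0.25 (adjusted p = 3.7e-06 and 0.00032), as did the nuclear receptor PPARG, by 0.33 and 0.32 (adjusted p = 0.0019 and 0.0035). TFAP2A, whose protein AP-2 binds the CGB5 promoter in trophoblast cells, fell with sh1 by 0.43 (adjusted p = 8.5e-06) and was at 0.01 with sh3. JUN, a component of AP-1, rose with sh1 by 0.36 (adjusted p = 1.6e-05) and was at 0.11 with sh3, not called. The coactivator gene CREBBP rose by 0.19 with each (adjusted p = 0.00055 and 0.00097), and the homeobox gene MSX2, whose product represses the alpha promoter in trophoblast cells, by 0.40 and 0.44 (adjusted p = 0.047 and 0.042). GCM1, the factor that drives syncytiotrophoblast fusion, was barely present, at a mean of 0.0643 FPKM.

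**Figure D5:**
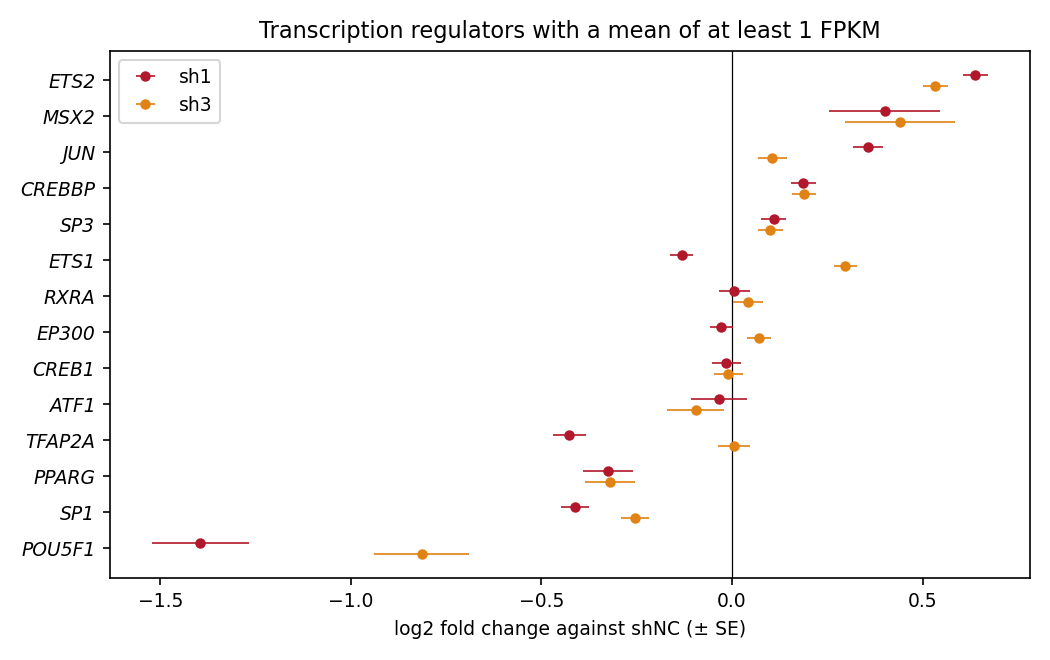
Log2 fold change against shNC (± SE, edgeR, 3 libraries a group) with sh1 and sh3 of the 14 listed regulators that averaged at least 1 FPKM. ETS2 lies highest, at 0.64 and 0.53, and POU5F1 lowest, at -1.40 and -0.81.

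Cyclic AMP acting through protein kinase A is the textbook inducer of both subunits in trophoblast cells. Of 30 tested genes of this pathway 8 rose and 10 fell with sh1, and 5 rose and 6 fell with sh3, with medians of -0.03 and -0.04, where 38.7% and 26.9% of all tested genes were called in either direction. CRTC2, a CREB coactivator, rose by 0.29 and 0.32 (adjusted p = 0.00056 and 0.00047) and PRKAR2A, a regulatory subunit of the kinase, by 0.31 and 0.16 (adjusted p = 0.00028 and 0.030). The adenylyl cyclase gene ADCY3 and the factor gene CREB3 were called with sh1, at 0.23 and 0.19 (adjusted p = 0.0036 and 0.019), and stood at 0.13 and 0.12 with sh3. Neither differed between the hairpins by the test (sh3 minus sh1 -0.10 and -0.07, adjusted p = 0.21 and 0.42). RAPGEF3, the cyclic AMP sensor that acts beside the kinase, fell by 1.89 and 1.14 (adjusted p = 1.1e-08 and 9.3e-07), the phosphodiesterase gene PDE7A by 0.42 and 0.38 and the inhibitory subunit gene PRKAR1A by 0.35 and 0.20 (adjusted p at most 0.00058). CRTC1 fell with sh1 by 0.40 (adjusted p = 0.00016) and was at -0.14 with sh3.

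A wider placental programme was for the most part not expressed. Of 44 listed syncytiotrophoblast and placental genes 34 had a row, and 22 of these averaged under 0.1 FPKM. Of the 20 tested, 6 rose and 0 fell with sh1, and 4 rose and 1 fell with sh3, with medians of 0.36 and -0.03 (called higher over all tested genes, 19.9% and 14.4%). The 4 that averaged at least 1 FPKM rose with both hairpins, as did 10.6% of all tested genes (edgeR, adjusted p under 0.05 in both). PEG10, an imprinted retrotransposon-derived gene, rose by 1.33 and 1.06 (edgeR, adjusted p = 9.5e-05 and 0.00094). ADAM12, a metalloprotease, rose by 0.73 and 0.37, and TFPI2, a protease inhibitor, by 0.56 and 0.30. SDC1, a cell-surface proteoglycan, rose by 0.30 and 0.65 (adjusted p at most 0.00025 for these 3). The others called higher with sh1 were INHBA (2.15, edgeR, adjusted p = 2.5e-06) and PSG4 (0.48, adjusted p = 0.040). With sh3 INHBA was at 0.17 and PSG4 at -0.47, not called. The single gene that fell with sh3, named after its value was seen, was the pregnancy-specific glycoprotein gene PSG9 (-0.72, adjusted p = 0.00086). Between the hairpins 1 was called higher and 6 lower with sh3 than with sh1, against 12.9% and 13% of all tested genes.

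The markers of the tumour line itself changed unevenly beside these values. Of 8 ovarian and epithelial markers 1 rose and 5 fell with sh1, and 2 rose and 1 fell with sh3, beside the 19.9% and 18.8% of all tested genes called higher and lower with sh1 and the 14.4% and 12.4% with sh3. Their summed level was 715.1 to 744.7 FPKM in sh1, 1139 to 1185 FPKM in sh3 and 1112 to 1217 FPKM in shNC. PAX8 fell with both (-1.02 and -0.64, adjusted p = 3.6e-08 and 3.3e-06). ERBB2 (-0.83), KRT19 (-1.16) and EPCAM (-0.55) fell with sh1 (adjusted p at most 0.013), while KRT7 rose with sh1 (0.91) and KRT8 with sh3 (0.64). Markers of other cell types were low: 4 leukocyte markers summed to 0.0972 to 0.133 FPKM in sh1, 0.0481 to 0.358 in sh3 and 0.0221 to 0.130 in shNC, with the pan-leukocyte gene PTPRC at a mean of 0.00033 FPKM, and 5 endothelial markers to 0.978 to 1.15 FPKM in sh1, 2.72 to 2.90 in sh3 and 1.89 to 2.12 in shNC. Fibroblast markers summed to 15.5 to 16.1 FPKM in sh1, 10.5 to 11.3 FPKM in sh3 and 13.1 to 16.9 FPKM in shNC. Among them COL1A1, a collagen chain, rose with both hairpins (0.77 and 0.42), and LUM, a matrix proteoglycan, fell (-0.47 and -1.50). The part of these shifts in the beta subunit values was not tested.

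Among 11372 other genes with a symbol and at least 1 FPKM, those whose centred log2(CPM + 1) profile over the 9 libraries lay nearest to that of the summed beta copies were LRRN4, at a root mean square difference of 0.305, SMTN (0.317), FN1 (0.327), KRT81 (0.351), FAM72A (0.367), PIF1 (0.374), GPATCH4 (0.379), TGFBI (0.381), KRT17 (0.396) and SHISAL1 (0.401). None lies on chromosome 19, but members, clone identifiers and pseudogenes were left out of the candidates. Rows inside the cluster such as ENSG00000269706 were therefore not compared with the sum. LRRN4, a leucine-rich repeat membrane protein gene, averaged 14.5 ± 0.246 CPM in sh1, 11.3 ± 1.71 CPM in sh3 and 4.29 ± 0.340 CPM in shNC. FN1, the fibronectin gene, averaged 3066 ± 36.1 CPM in sh1, 2042 ± 45.5 CPM in sh3 and 940.1 ± 104.0 CPM in shNC. These 9 points share their libraries and group means, and the likeness is a description.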

How the data were processed

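RNA of integrity above 7 (Bioanalyzer) was poly(A)-selected, made into dUTP-marked libraries and read in pairs of 150 bases, per the labels' protocols. The genome build was GRCh38, and HISAT2 2.2.1, cutadapt 1.9 and StringTie 2.1.6 were among the tools, with edgeR and DESeq2, per the submitters' processing notes. What each tool did, which annotation was used and whether reads were counted by strand is not stated there. In the 1 table that the authors deposited, each gene has a raw whole-number count in every library. The authors deposited FPKM in the same table, a level scaled to length and depth per the file headers.

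The members and gene lists were chosen with earlier results of these data known. Counts of all genes were fitted with edgeR 4.0.16 in R 4.3.3 (filterByExpr with a minimum count of 10, TMM, glmQLFit and glmQLFTest; 1 mean per group over 9 libraries, no covariate), leaving 21296 genes. Calls required an adjusted p (Benjamini-Hochberg over all of them, two-sided) under 0.05. A second fit replaced the 6 beta rows by their sum. A standard error was the absolute log2 fold change divided by the square root of F, and 95% intervals used the model's degrees of freedom. The fit was tested on simulated data. Exact permutation tests used scipy 1.17.1, and promoter alignment Biopython 1.88. Promoter tables came from RefSeq.

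No 2 replicates were close enough to be copies of one library (chi-square of 8.51 to 17.3 for each degree of freedom). Alternatives were DESeq2 1.42.0, library totals, no filter, a replicate block, limma 3.58.1 on log2(FPKM + 1) and log2(FPKM + 0.1), each library left out, and other sums of the beta rows. One of these sums, adding the locus that overlaps CGB3, was chosen after seeing the data. Named genes were the members, STXBP6, up to 4 called genes per list and direction with the largest mean change among those of at least 1 FPKM, the 4 nearest tested protein-coding neighbours on each side, and the 10 genes of most similar profile. MUC16, GCM1, PTPRC, INHBA, PSG4 and PSG9 were named outside this rule, after their values were seen.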

Additional observations from a re-analysis of the deposited data

Results flagged for a closer look

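The difference between the hairpins was called for CGB8 and for the summed beta copies. CGB8 averaged 22.0 ± 0.645 CPM in sh3 and 29.7 ± 1.73 CPM in sh1 (SD, n = 3 each), a log2 difference of -0.433 (edgeR, adjusted p = 0.020). All 3 sh3 libraries were below all 3 sh1 libraries. The opposite complete order held for 21% of tested genes, and the share with this order was not counted. The summed beta copies differed by -0.3113 on the log2 scale (edgeR, adjusted p = 0.0081), at 45.2 ± 2.57 CPM in sh3 and 56.0 ± 2.45 CPM in sh1. The sum without CGB7 differed by -0.34 and with the overlapping locus added by -0.30, both called (adjusted p = 0.0096 and 0.012).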

How the results depend on the processing

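The summed beta copies kept their direction in all 3 contrasts under each of 18 alternatives, at 2.16 to 2.34 (log2) for sh1 minus shNC, 1.85 to 2.00 for sh3 minus shNC and -0.35 to -0.27 for sh3 minus sh1, and the last stayed called (adjusted p 0.00023 to 0.039). The same replicate numbers did not mark pairs (correlations of deviations -0.03 to 0.02). With the replicate as a block, the sum was at 2.25, 1.94 and -0.31, and 7951, 5446 and 5125 genes were called, against 8243, 5719 and 5507 without it. Without single libraries CGB2 (sh3 minus sh1) ranged from -0.16 to 0.62 and CGB7 from -0.073 to 0.14, neither called, so their sign is not settled; CGB8 ranged from -0.48 to -0.40, with the lost calls given above. Called endothelial markers (sh3 minus sh1) numbered 1 in place of 2 with DESeq2, without the filter, with the replicate block and with limma at either pseudocount, and 1 to 2 without single libraries. Leaving out libraries gave 0 to 1 leukocyte markers in sh3 minus shNC and in sh3 minus sh1 (0 with all), 9 to 15 neighbours in sh1 minus shNC (14 with all) and 3 to 7 in sh3 minus sh1 (6 with all, 3 without sh1 replicate 2); the causes were not tested. A pseudocount of 1 FPKM shrank low members, such as CGB7 to 0.59 and LHB to 0.55 with sh1. Depth limits LHB and CGB2, and CGA was below testing.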
